A study of Mus musculus with 8 samples.

Results

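Integrins are adhesion receptors made of 1 alpha and 1 beta subunit, and 10 integrin subunit genes that T cells use for adhesion and tissue residency were followed in bulk RNA-seq of mouse CD8+ T cells. The genes were taken by symbol from the deposited expression table, in which all 10 were found among 22520 genes and assembled transcripts. They are 6 alpha subunit genes, Itgal, Itga4, Itgae, Itga1, Itga6 and Itgav, and 4 beta subunit genes, Itgb1, Itgb2, Itgb3 and Itgb7. CD8+ T cells came from the spleens of C57BL/6J mice, male and 6 to 8 weeks old by the study's methods, and were isolated by negative magnetic selection. All cells, controls included, were kept under anti-CD3 and anti-CD28 antibody with IL-2 for 6 days. From day 3 the medium held 40 µM DADA (diisopropylamine dichloroacetate, an inhibitor of pyruvate dehydrogenase kinase) or an equal volume of DMSO, and cells were harvested on day 6. Each group had 4 libraries, which the submitters describe as biological replicates. The comparison of the groups asks how DADA altered gene expression in persistently stimulated CD8+ T cells.

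Which heterodimer a cell can build depends on the subunits it makes, and most beta subunits accept several alpha subunits. LFA-1, the pair of Itgal and Itgb2, binds ICAM proteins and holds a T cell to its target or to endothelium. The alpha 4 subunit pairs with beta 1 to form VLA-4, which binds VCAM-1 and fibronectin, or with beta 7 to form the gut-homing receptor for MAdCAM-1. The alpha E subunit (CD103) pairs with beta 7 to bind E-cadherin on epithelium and, like the collagen-binding alpha 1 subunit (CD49a) with beta 1, marks resident memory T cells. Alpha 6 with beta 1 binds laminin. Alpha V pairs with beta 1 or beta 3, among others, and binds vitronectin, fibronectin and latent TGF-beta.

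Levels are given in FPKM (fragments normalised to transcript length and library size), so that genes can be set beside each other. Differences were tested with limma on log2(FPKM + 1) over the 10666 genes with 4 or more of the 8 libraries at 1 FPKM or above, with Benjamini-Hochberg adjustment over all of them, and a gene was called at an adjusted p under 0.05. Fold changes on this scale understate the change of genes at low FPKM. FPKM values carry no depth, and an estimate from the spacing of low values gave 13840000 to 16300000 fragments per DMSO library and 14750000 to 18750000 per DADA library. The 8 libraries separated by treatment, with Pearson correlations of log2 values across genes of 0.993 to 0.995 within a group and 0.958 to 0.961 between groups, where genes are not independent replicates. The CD8 T cell markers were high in both groups (Cd8a 126 ± 1.93 FPKM with DMSO and 154 ± 5.44 with DADA, SD, n = 4), and Cd4 stayed at 0.144 to 0.411 FPKM over all 8 libraries. In bulk RNA, a change in the share of cells that express a gene cannot be told apart from a change in RNA per cell.

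Of the 10 integrin subunits, 8 passed the filter on low values, and 6 of these differed between DADA-treated and DMSO-treated cells. Itgb3 rose, and Itgal, Itgb2, Itgb1, Itgav and Itga6 fell. Itga4 and Itgb7 were not called, and Itgae and Itga1 stayed below 1 FPKM in every library. Across all genes tested, limma called 7064 (66.2%), with 30.9% higher and 35.3% lower in DADA-treated cells, so the share of called integrin subunits (75.0%) was near that of all genes. The same 6 subunits had no overlap between the 4 DADA and the 4 DMSO libraries, which held for 60.6% of all genes tested. The median log2 fold change of the 8 subunits was -0.18, beside -0.02 over all genes tested, and their median change regardless of direction was 0.23 on the log2 scale, beside 0.21 over all genes. For each of the 6, the two-sided exact permutation test on FPKM gave p = 0.0286, the smallest that 70 assignments of 8 libraries can give.

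The described subunits kept nearly the same order of level in both groups. Itgal was the highest, followed by Itgb2, Itgb1, Itgb7, Itgav and Itga4, and no neighbours in this order overlapped within either group. Itga6 ranked above Itgb3 with DMSO and below it with DADA, again with no overlap within either group. Itgae and Itga1 were the lowest in both groups, and their values overlapped with DMSO.

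**Figure D1:**
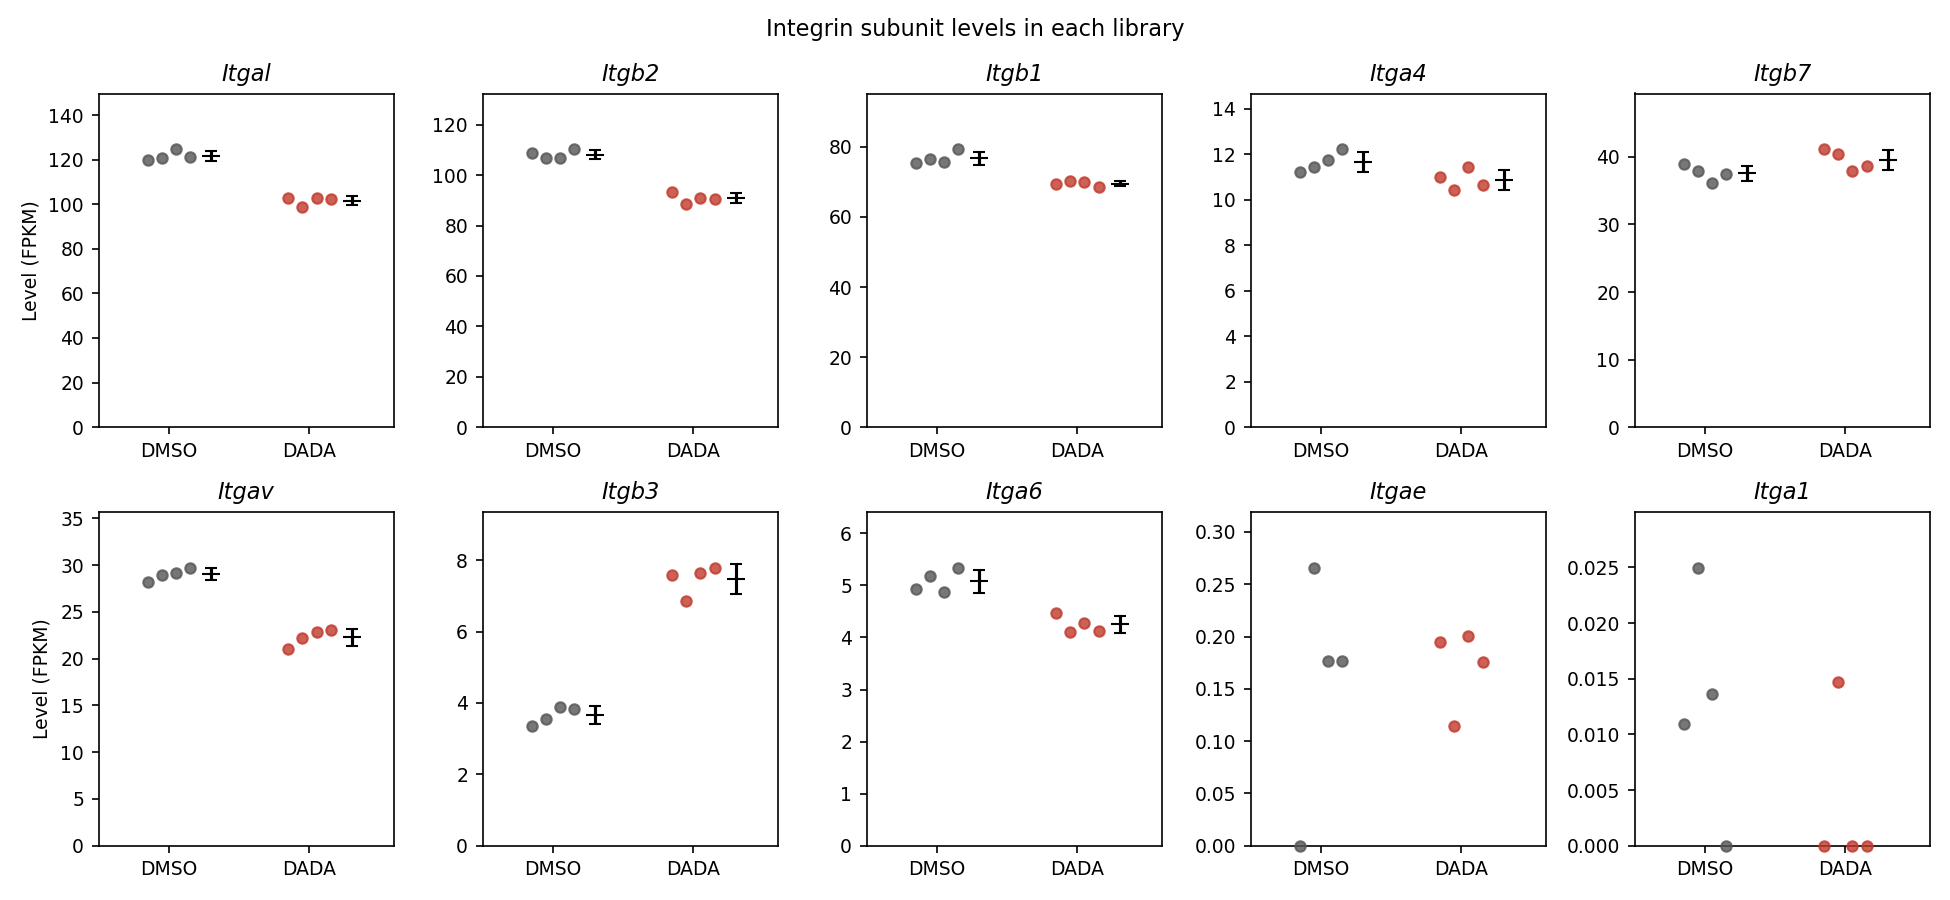
Level in FPKM (y axis, from 0, scaled to each gene) of the 10 integrin subunit genes in the 4 DMSO and 4 DADA libraries (points), with the mean and SD beside the points for the 8 genes past the filter. Itgb3 is the only 1 of these 8 with every DADA library above every DMSO library, and 5 subunits have every DADA library below.

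Both subunits of LFA-1 fell, and by nearly the same proportion. Itgal, the alpha L chain found only in LFA-1, was at 119.9, 120.6, 124.7 and 121.1 FPKM in the libraries with DMSO and at 102.7, 98.7, 102.9 and 102.2 FPKM in those with DADA. All DADA libraries lay below all DMSO libraries, and DADA library 2 was the lowest of its group. The mean level fell by 16.4%, with a log2 fold change of -0.26 (95% interval -0.31 to -0.21, limma adjusted p = 4.66e-06). Itgb2, the beta chain shared by the leukocyte integrins, was at 108.8, 107.0, 106.7 and 110.4 FPKM with DMSO and at 93.5, 88.5, 91.1 and 90.6 FPKM with DADA, again without overlap. The mean level of Itgb2 fell by 16.0%, with a log2 fold change of -0.25 (95% interval -0.30 to -0.20, limma adjusted p = 6.82e-06). The ratio of Itgal to Itgb2 was 1.12 ± 0.033 with DMSO and 1.12 ± 0.0145 with DADA (SD, n = 4), and the groups overlapped. Of the 4 alpha subunits that pair with beta 2, Itgal made up 99.7% of the summed FPKM with DMSO and 99.9% with DADA, while Itgam, Itgax and Itgad, which mark myeloid integrins, were each below 1 FPKM in every library.

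The beta 1 chain, the partner of most matrix-binding alpha subunits, fell less. Itgb1 was at 75.4, 76.5, 75.6 and 79.4 FPKM with DMSO and at 69.3, 70.1, 70.1 and 68.5 FPKM with DADA. The groups did not overlap, and the spread within the DADA group (SD 0.755 FPKM) was small beside the difference of the means. The mean level fell by 9.38%, with a log2 fold change of -0.14 (95% interval -0.19 to -0.088, limma adjusted p = 4.15e-04). Of all genes tested, 33.9% had a lower log2 fold change than Itgb1.

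The subunits of the alpha 4 receptors moved little. Itga4 was at 11.2, 11.5, 11.8 and 12.2 FPKM with DMSO and at 11.0, 10.4, 11.5 and 10.6 FPKM with DADA, so that DADA library 3 lay among the DMSO values. Its log2 fold change of -0.093 had a 95% interval of -0.18 to -0.0016 and missed the threshold (limma adjusted p = 0.068, two-sided exact permutation p = 0.0571). Without DADA library 3 the log2 fold change was -0.12 and Itga4 was called (limma adjusted p = 0.0347). Itgb7, which pairs with alpha 4 or alpha E, was at 38.9, 37.9, 36.2 and 37.4 FPKM with DMSO and at 41.2, 40.4, 37.9 and 38.7 FPKM with DADA. The DADA values of Itgb7 were in the upper part of the common range, but 2 of them lay within the DMSO range. Its log2 fold change of 0.072 (95% interval -0.0032 to 0.15) was not called in the fit above (limma adjusted p = 0.0834, two-sided exact permutation p = 0.114). It was called without DADA library 3 (log2 fold change 0.091, limma adjusted p = 0.0416) and under 2 other scalings of the libraries (adjusted p of 0.0157 and 0.0151). Neither gene changed direction under any alternative run.

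The balance of the 2 beta chains open to alpha 4 differed between the groups. The ratio of Itgb7 to Itgb1, chosen after the values were seen and given with no test, was 0.516, 0.495, 0.478 and 0.471 in the DMSO libraries and 0.594, 0.576, 0.541 and 0.565 in the DADA libraries. Every DADA library lay above every DMSO library. The ratio of Itga4 to Itgb1 was 0.152 ± 0.00326 with DMSO and 0.156 ± 0.00627 with DADA, and that of Itga4 to Itgb7 was 0.311 ± 0.0186 with DMSO and 0.275 ± 0.019 with DADA (SD, n = 4). In both of these ratios the groups overlapped.

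The largest changes among the described subunits were those of the alpha V and beta 3 chains, and they went in opposite directions. Itgav was at 28.2, 28.9, 29.2 and 29.7 FPKM with DMSO and at 21.0, 22.2, 22.8 and 23.1 FPKM with DADA, without overlap. The mean level fell by 23.2%, with a log2 fold change of -0.37 (95% interval -0.44 to -0.29, limma adjusted p = 6.40e-06), and 12.3% of all genes tested had a lower one. Itgb3 was at 3.37, 3.54, 3.89 and 3.84 FPKM with DMSO and at 7.59, 6.87, 7.63 and 7.79 FPKM with DADA. The lowest DADA library of Itgb3, library 2, was still well above the highest DMSO library. The mean level in DADA-treated cells was 2.04 times that in DMSO-treated cells, with a log2 fold change of 0.86 (95% interval 0.74 to 0.99, limma adjusted p = 3.89e-07). Only 4.66% of all genes tested rose by more on this scale. With a pseudocount of 0.1 in place of 1 the log2 fold change was 1.01.

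Itgav remained in excess of Itgb3, but by much less. The ratio of Itgav to Itgb3 was 8.37, 8.16, 7.49 and 7.75 in the DMSO libraries and 2.77, 3.24, 2.99 and 2.96 in the DADA libraries. The ranges lay far apart, with means of 7.94 ± 0.396 and 2.99 ± 0.193 (SD, n = 4). Among the beta chains that pair with alpha V, Itgb1 made up 95.2% ± 0.199 of the summed FPKM with DMSO and 90.1% ± 0.509 with DADA, and Itgb3 made up 4.54% ± 0.268 and 9.68% ± 0.555 (SD, n = 4). The ratio of Itgav to Itgb1 went from 0.378 ± 0.00534 to 0.320 ± 0.0142 (SD, n = 4), without overlap. Beta 3 is also the partner of alpha IIb (Itga2b) on platelets. Itga2b was at 0.42 to 0.544 FPKM with DMSO and at 0.394 to 0.502 FPKM with DADA, and all 8 platelet and megakaryocyte markers were below 1 FPKM in every library. Their summed level was 0.598 to 0.799 FPKM with DMSO and 0.507 to 0.687 FPKM with DADA, 4 of the 8 were at 0 in all libraries, and the platelet chemokine genes Pf4 and Ppbp were among those at 0.

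**Figure D2:**
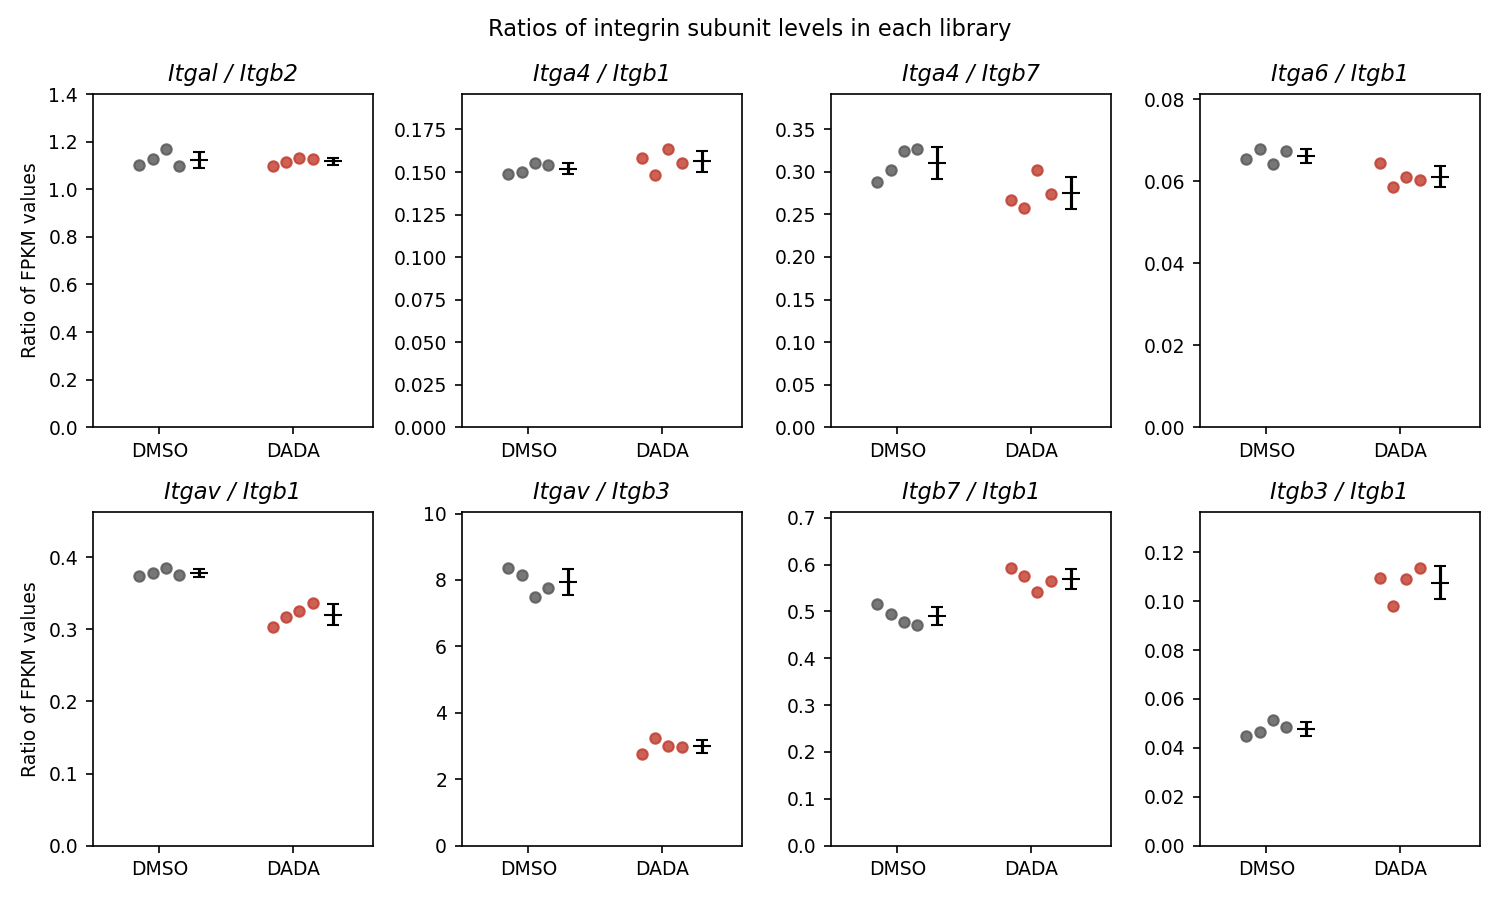
Ratio of the FPKM values of 2 subunits (y axis, from 0, scaled to each pair) in the 4 DMSO and 4 DADA libraries (points), with the mean and SD beside the points. The ratio of Itgal to Itgb2 is alike in both groups, that of Itgav to Itgb3 goes from a mean of 7.94 to 2.99, and that of Itgb7 to Itgb1 is higher in every DADA library.

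The residency integrins CD103 and CD49a were at or near the limit of detection in both groups. Itgae was listed at 0, 0.266, 0.177 and 0.177 FPKM with DMSO and at 0.195, 0.114, 0.2 and 0.175 FPKM with DADA. At the estimated depth, the values above 0 correspond to about 8.2 to 16.7 fragments of its 3845-base transcript. The groups overlapped, and in the fit without a filter, over 16167 genes, the log2 fold change was 0.025 (95% interval -0.13 to 0.18, limma adjusted p = 0.788). The sign depended on DMSO library 1, the 1 listed at 0, without which the log2 fold change was -0.043 (limma adjusted p = 0.413). Itga1 was listed at 0.011, 0.025, 0.0136 and 0 FPKM with DMSO and at 0, 0.0147, 0 and 0 FPKM with DADA, or at most about 4.5 fragments of a 10967-base transcript. A difference in Itga1 was not detectable at this depth (limma adjusted p = 0.435 in the fit without a filter). Itga1 shares 685 exon bases with the gene Gm49395 on the same strand in GENCODE M21, and Gm49395 was at 2.39 to 4.25 FPKM, so fragments from the shared stretch may have been assigned to either gene. Itgb7 was present without its alpha E partner at a comparable level, and the ratio of Itgae to Itgb7 was at most 0.00702 in any library.

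The laminin receptor subunit Itga6 fell slightly, while the other laminin-binding alpha subunits, Itga3 and Itga7, were higher with DADA. Itga6 was at 4.94, 5.19, 4.86 and 5.34 FPKM with DMSO and at 4.48, 4.11, 4.29 and 4.13 FPKM with DADA. The groups did not overlap, and the mean level fell by 16.4%, with a log2 fold change of -0.21 (95% interval -0.32 to -0.11, limma adjusted p = 0.00246). The ratio of Itga6 to Itgb1 overlapped between the groups, at 0.0662 ± 0.00165 with DMSO and 0.0612 ± 0.00252 with DADA (SD, n = 4). Of 16 other integrin subunits, only Itga3, Itga5 and Itga7 passed the filter on low values. Itga7, best known as a laminin receptor of muscle, was at 0.0658, 0.0863, 0.0793 and 0.126 FPKM with DMSO and at 6.67, 6.80, 6.87 and 7.31 FPKM with DADA. It passed the filter through the DADA libraries alone and so had to differ, and its log2 fold change of 2.86 (95% interval 2.74 to 2.98) is a description. Itga3, which pairs with beta 1 to bind laminin, was at 2.91, 3.04, 3.43 and 3.58 FPKM with DMSO and at 8.48, 8.44, 7.94 and 8.73 FPKM with DADA. Its mean was 2.59 times higher with DADA (log2 fold change 1.15, 95% interval 1.02 to 1.29, limma adjusted p = 8.31e-08). The fibronectin receptor subunit Itga5 was not called (3.64 ± 0.185 FPKM with DMSO and 3.47 ± 0.209 with DADA, SD, n = 4, log2 fold change -0.052, 95% interval -0.17 to 0.067, limma adjusted p = 0.411).

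The set of alpha subunits that can pair with beta 1 changed in make-up more than in sum. The summed level of the 12 alpha partners of beta 1 was 53.7 ± 1.45 FPKM with DMSO and 57.3 ± 0.885 FPKM with DADA (SD, n = 4), with every DADA library above every DMSO library. Itga3 and Itga7 were the 2 of these partners past the filter that were higher with DADA. Without them the sum was 50.3 ± 1.12 FPKM with DMSO and 42.0 ± 0.728 FPKM with DADA, again without overlap. The opposite order follows from leaving out these 2. Itgav made up 54.0% ± 0.301 of the sum with DMSO and 38.8% ± 1.1 with DADA. The share of Itga4 went from 21.7% ± 0.253 to 19.0% ± 0.825 and that of Itga6 from 9.47% ± 0.338 to 7.42% ± 0.376 (SD, n = 4). A share also falls where other subunits in the sum rise, and the level of Itga4 itself was not called (limma adjusted p = 0.068). Itga3 went from 6.02% ± 0.439 to 14.6% ± 0.593 and Itga7 from 0.166% ± 0.0434 to 12.0% ± 0.317. Among the 3 laminin-binding alpha subunits, Itga6 made up 60.5% ± 2.26 of the sum with DMSO and 21.7% ± 1.09 with DADA. The sum of these 3 went from 8.41 ± 0.471 to 19.6 ± 0.461 FPKM. Itga7, which passed the filter through the DADA libraries alone, takes part in all these shares. These sums and shares were chosen after the values were seen and are given as a description, with no test.

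**Figure D3:**
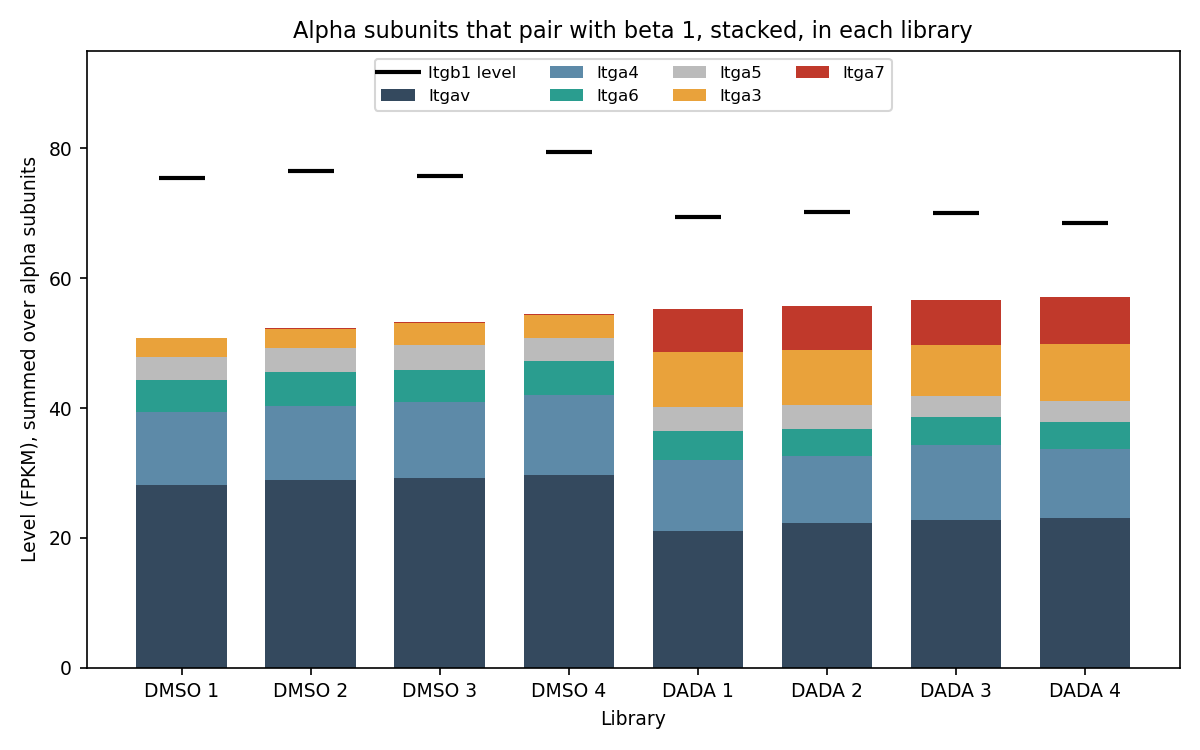
Level in FPKM of the 6 alpha subunits that pair with beta 1 and passed 1 FPKM in at least 1 group, stacked for each of the 8 libraries, with the level of Itgb1 as a black line. The stacks are of similar height in both groups, but Itga3 and Itga7 take a visible share with DADA, Itgav, Itga4 and Itga6 a smaller one, and Itgb1 is lower. The level of Itga4 itself was not called.

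**Figure D4:**
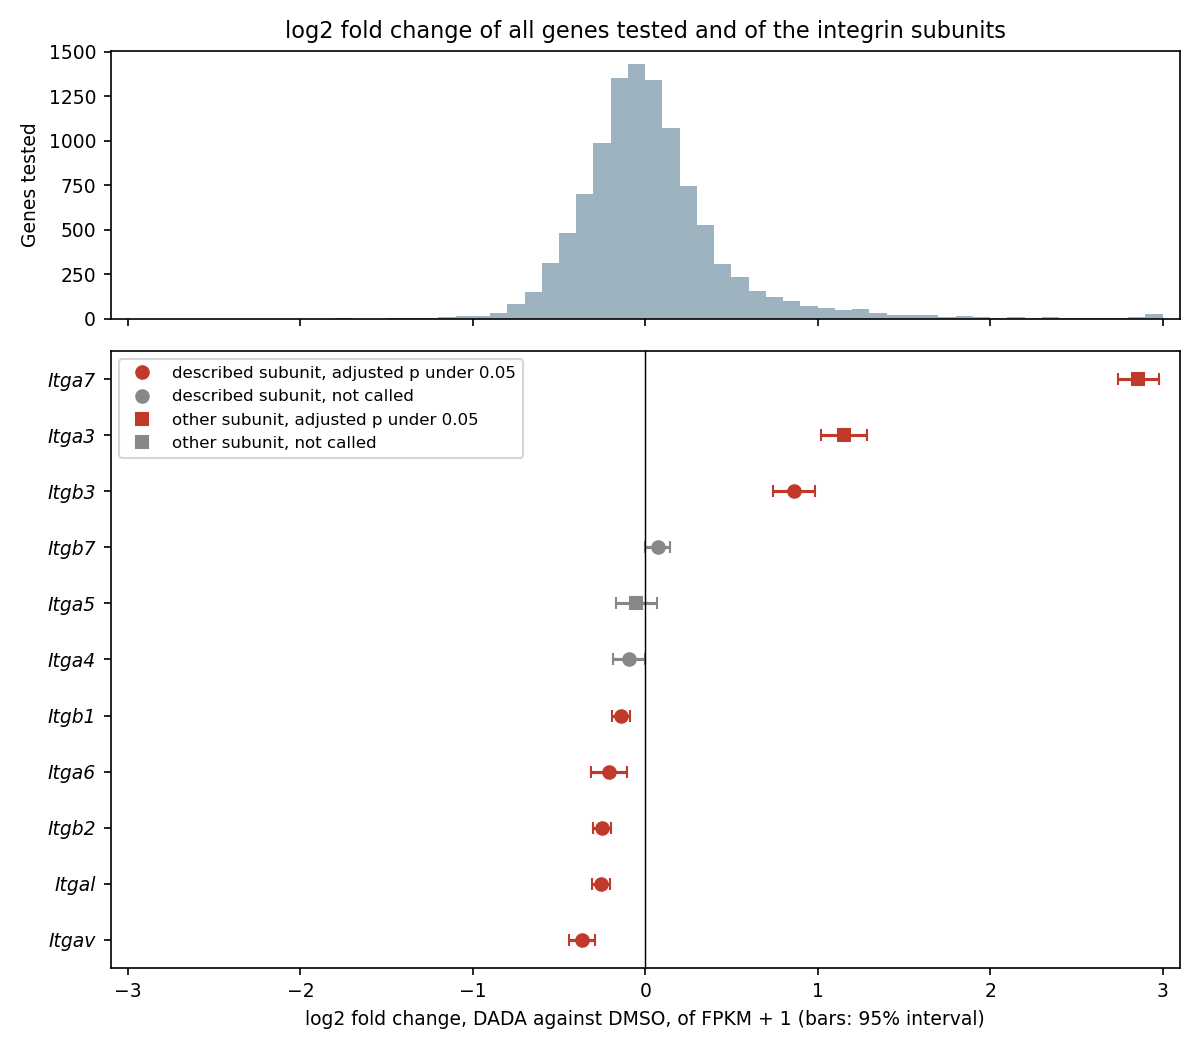
Upper panel, the number of genes at each log2 fold change (DADA against DMSO, FPKM + 1, values beyond 3 drawn at 3) among the 10666 genes tested. Lower panel, the log2 fold change and 95% interval of the 8 described subunits past the filter (circles) and of the 3 other subunits past it (squares). Itgb3, Itga3 and Itga7 lie in the upper tail, and the 5 subunits that fell lie between -0.37 and -0.14.

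RefSeq promoter windows were given for 5 of the 10 subunits, and the 250 bases before the annotated start are printed for 3 of them, to set 2 genes that fell beside 1 that was not called. The sequences are from build GRCm38.p6 and run 5' to 3' on the strand of the gene. They are Itgav at chr2:83724147-83724396 on the plus strand, Itgb1 at chr8:128685404-128685653 on the plus strand and Itgb7 at chr15:102231936-102232185 on the minus strand. Capitals mark exact matches, on either strand, to the letters GGGCGG (the GC box) or CGGAAG (an ETS motif).
Itgav: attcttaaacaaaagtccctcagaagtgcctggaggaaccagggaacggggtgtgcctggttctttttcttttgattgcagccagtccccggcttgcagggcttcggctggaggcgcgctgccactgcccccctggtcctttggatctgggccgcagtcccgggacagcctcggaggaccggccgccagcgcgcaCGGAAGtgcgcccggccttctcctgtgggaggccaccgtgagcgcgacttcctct
Itgb1: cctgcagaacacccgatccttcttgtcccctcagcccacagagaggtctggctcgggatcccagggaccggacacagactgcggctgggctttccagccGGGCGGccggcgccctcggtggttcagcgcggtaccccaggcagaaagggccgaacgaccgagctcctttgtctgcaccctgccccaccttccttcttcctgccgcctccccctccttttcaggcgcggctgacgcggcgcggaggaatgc
Itgb7: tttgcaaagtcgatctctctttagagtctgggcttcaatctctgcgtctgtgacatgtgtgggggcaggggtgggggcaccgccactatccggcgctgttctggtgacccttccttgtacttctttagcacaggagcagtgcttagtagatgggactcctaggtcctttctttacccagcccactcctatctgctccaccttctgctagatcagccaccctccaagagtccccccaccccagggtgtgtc
Itgav held 1 ETS match, at -55 from the start, and Itgb1 held 1 GC box, at -151. Itgb7 held neither. Among 32851 promoter windows of this length, 32.7% held a GC box and 13.6% the ETS letters. The GC content was 64.4% for Itgav, 68.0% for Itgb1 and 56.0% for Itgb7, and 64.0% for Itga4 and 57.6% for Itga1, beside a median of 52.4% over all windows. The window of Itga4 held a GC box and a match to the RUNX letters TGTGGT, which 14.0% of all windows held, and that of Itga1 held none of these letters. TGANTCA (AP-1), ACGTG (HIF) and TATAAA (the TATA box) had no match in any of the 5 windows, and 6.75%, 16.6% and 12.4% of all windows held them. A match is a description of these letters, and its absence says nothing of the factor.

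Of 20 genes for integrin activation from inside the cell, 16 were tested, and 3 rose, 6 fell and 7 were not called, with a median log2 fold change of -0.04 beside -0.02 over all genes. Calls were made for 56.25% of those tested, beside 66.2% of all genes (30.9% higher and 35.3% lower), and the shares of the lists that follow are read against the same values. Rassf5 (RAPL), which links the small GTPase Rap1 to LFA-1, fell from 44.9 ± 1.17 to 35.8 ± 0.529 FPKM (log2 fold change -0.32, limma adjusted p = 2.55e-06). Apbb1ip (RIAM), which brings talin to integrins, fell from 32.8 ± 0.874 to 27.1 ± 0.879 FPKM (log2 fold change -0.27, limma adjusted p = 3.85e-05). Rapgef1, an exchange factor that activates Rap1, rose by 0.27 on the log2 scale (limma adjusted p = 7.75e-06), and Sipa1l1, which inactivates Rap proteins, rose by 0.21 (limma adjusted p = 5.31e-04). Errors are SD with n = 4 per group here and in the lists that follow.

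All 7 genes listed as negative regulators of integrins were tested, and 1 rose, 2 fell and 4 were not called, with a median log2 fold change of -0.01 and 42.9% called. Ndrg1, a stress- and hypoxia-responsive gene that has been linked to integrin trafficking, rose from 21.9 ± 0.899 to 122 ± 1.12 FPKM (log2 fold change 2.42, limma adjusted p = 4.07e-12). Dok2, an adaptor that can compete with talin for beta chain tails, fell by 0.38 on the log2 scale (limma adjusted p = 5.94e-05), and Flna, filamin A, which also competes with talin, fell by 0.31 (limma adjusted p = 5.79e-06).

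Of 20 genes of the adhesion complex that assembles on integrin tails, 15 were tested, with 6 higher, 7 lower and 2 not called, a median log2 fold change of -0.02 and 86.7% called. Parvg, the parvin of blood cells, fell from 112 ± 1.63 to 82.4 ± 1.51 FPKM (log2 fold change -0.43, limma adjusted p = 7.26e-08). Bcar1 (p130Cas) and Nedd9 (CAS-L) are related docking proteins. Bcar1, 1 of the 6 higher genes, had levels of 0.207 ± 0.0519 FPKM (DMSO) and 3.57 ± 0.368 FPKM (DADA), and since it passed the filter through the DADA libraries alone it had to differ, so its values are a description. Nedd9 fell from 15.6 ± 0.488 to 12.6 ± 0.232 FPKM (log2 fold change -0.29, limma adjusted p = 2.98e-05). Vcl, vinculin, rose by 0.68 on the log2 scale (limma adjusted p = 2.73e-05).

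Of 26 genes for integrin ligands and for proteins that display them, 10 were tested, and 6 rose, 1 fell and 3 were not called, with a median log2 fold change of 0.22 and 70% called, near the 66.2% of all genes tested. Lamc1 codes for a laminin gamma chain, 1 of the chains of laminin, which the alpha 3, alpha 6 and alpha 7 receptors bind. It rose from 18.2 ± 0.047 to 30.3 ± 1.14 FPKM (log2 fold change 0.70, limma adjusted p = 2.74e-08). Of the other listed laminin chains, Lama5 rose from 4.74 ± 0.282 to 7.75 ± 0.238 FPKM (log2 fold change 0.61, limma adjusted p = 1.58e-06). Lama4, Lamb1 and Lamb2 were below 1 FPKM in every library. Lrrc32 (GARP), which holds latent TGF-beta on the cell surface, where alpha V integrins can release it, rose from 3.16 ± 0.444 to 10.4 ± 0.31 FPKM (log2 fold change 1.45, limma adjusted p = 5.27e-08). Tgfb1 itself was the only 1 of the 10 called lower, from 78.3 ± 4.56 to 56.1 ± 1.42 FPKM (log2 fold change -0.47, limma adjusted p = 3.17e-06).

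All 11 tetraspanins and lateral partners of integrins were tested, with 5 higher, 3 lower and 3 not called, a median log2 fold change of 0.10 and 72.7% called, near the 66.2% of all genes tested. Bsg (basigin, CD147), a partner of beta 1 integrins and of lactate transporters, rose from 180 ± 3.5 to 476 ± 11.6 FPKM (log2 fold change 1.40, limma adjusted p = 4.13e-11), and the tetraspanin Cd63 rose by 0.81 on the log2 scale (limma adjusted p = 1.79e-05). Cd226 (DNAM-1), which associates with LFA-1, fell from 14.3 ± 0.924 to 10.2 ± 0.921 FPKM (log2 fold change -0.46, limma adjusted p = 1.38e-04), and the leukocyte tetraspanin Cd37 fell by 0.21 (limma adjusted p = 5.80e-04).

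Of 15 residency genes, 11 were tested, and 7 rose, 0 fell by the limma test (0 also at an unadjusted p under 0.05) and 4 were not called, with a median log2 fold change of 0.33. The share called in either direction was 63.6%, near the 66.2% of all genes tested, and 30.9% of all genes were called higher. P2rx7, below the filter and named after its values were seen, was lower with DADA (0.523 ± 0.124 and 0.109 ± 0.0303 FPKM, limma adjusted p = 1.97e-04 in the fit without a filter). Zfp683 (Hobit), also below the filter, was higher in the same fit (0.326 ± 0.0452 and 0.661 ± 0.0685 FPKM, limma adjusted p = 1.47e-04). Ahr and Cdh1, below the filter too, were not called in that fit. Prdm1 (Blimp-1), 1 of the 7, had levels of 0.661 ± 0.0853 FPKM (DMSO) and 7.56 ± 0.806 FPKM (DADA), and it too passed the filter through the DADA libraries alone, so its values are a description. The chemokine gene Xcl1 rose from 24.2 ± 3.07 to 52.5 ± 2.17 FPKM (log2 fold change 1.09, limma adjusted p = 7.60e-07). Of 12 recirculation genes, 10 were tested, and 7 rose, 1 fell and 2 were not called, with a median log2 fold change of 0.67 and 80.0% called. Klf2, a factor of quiescent, recirculating T cells, rose from 0.842 ± 0.164 to 3.03 ± 0.508 FPKM (log2 fold change 1.13, limma adjusted p = 4.18e-06), with 3 of its 4 DMSO libraries below the 1 FPKM of the filter, and Eomes was the 1 that fell (log2 fold change -0.36, limma adjusted p = 2.94e-05).

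**Figure D5:**
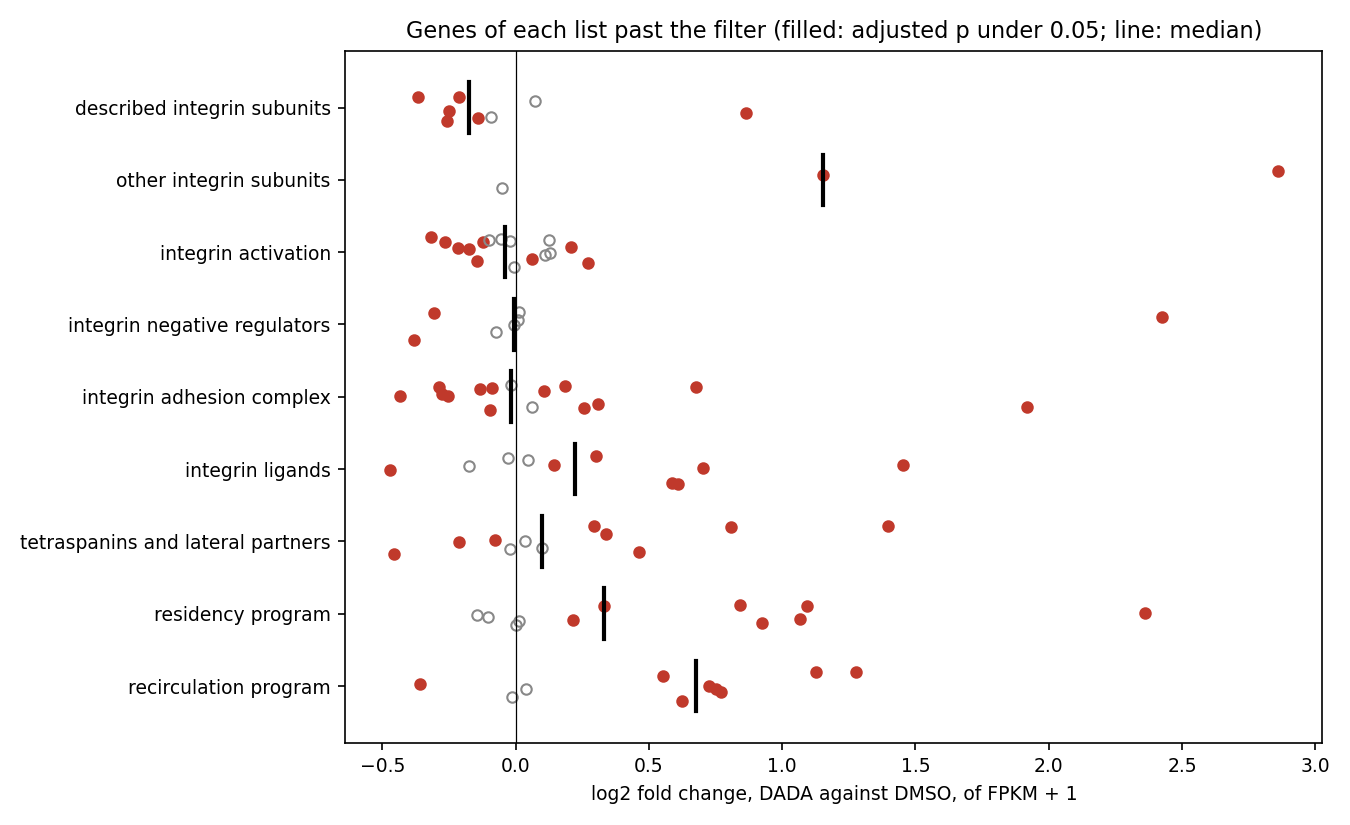
log2 fold change (x axis, DADA against DMSO, FPKM + 1) of the genes past the filter in the described integrin subunits and 8 further lists (rows, points spread vertically for legibility), filled where the limma adjusted p was under 0.05, with the median as a black line. The described subunits lie mostly below 0 with Itgb3 apart from them. Called above 0 were 7 of 11 residency and 7 of 10 recirculation genes, beside 30.9% of all genes tested. In either direction, 63.6% of the residency and 80.0% of the recirculation genes were called, beside 66.2% of all genes tested. The residency gene Prdm1 passed the filter through the DADA libraries alone, and the recirculation gene Klf2 had 3 of its 4 DMSO libraries below 1 FPKM.

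Most markers of other cells that carry integrins were low. All 8 CD8 T cell markers were called, 7 higher and 1 lower, beside 66.2% of all genes tested (30.9% higher and 35.3% lower). Of 10 myeloid markers 9 were below 1 FPKM in all libraries and 4 were at 0 throughout, and their summed level was 3.60 to 4.13 FPKM with DMSO and 5.28 to 6.00 FPKM with DADA, nearly all of it Cd68. Of 7 stromal and endothelial markers 6 were below 1 FPKM in all libraries and 3 at 0 throughout, with a summed level of 7.08 to 8.34 FPKM with DMSO and 9.36 to 10.4 FPKM with DADA, nearly all of it Pecam1, which T cells also make. B cell markers summed to 2.59 to 3.56 FPKM with DMSO and 2.36 to 3.09 FPKM with DADA, natural killer cell markers to 0.816 to 1.41 and 0.570 to 1.04 FPKM, and erythroid markers to 0.092 to 0.400 and 0.0726 to 0.426 FPKM. CD4 T cell markers summed to 16.3 to 17.4 and 15.3 to 15.8 FPKM, nearly all of it Zbtb7b, with Cd4 itself below 1 FPKM. Cd68 rose from 3.66 ± 0.222 to 5.32 ± 0.199 FPKM (log2 fold change 0.44, limma adjusted p = 2.71e-05). Pecam1 rose from 7.56 ± 0.545 to 9.77 ± 0.386 FPKM (log2 fold change 0.33, limma adjusted p = 2.68e-04). Zbtb7b was lower with DADA (log2 fold change -0.11, limma adjusted p = 0.00606). The part of these marker differences in the integrin changes was not tested.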

How the data were processed

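RNA was sequenced from 8 cultures of mouse splenic CD8+ T cells, 4 with DMSO and 4 with DADA, grouped by the sample titles. The deposited table of the authors holds 1 FPKM value for each gene in each library, and no counts. The submitters' processing notes name HISAT2 2.0.5, StringTie 1.3.3 and the builds GRCm39 and GRCh38 without their roles, and the notes and the study's methods name different library kits, so strand use in counting is not given in the sources used here. No coordinates of the files' build are given. Promoter sequences and their coordinates come from RefSeq on GRCm38.p6. Because 2 genes that overlap on opposite strands may share fragments, Itga4 is uncertain by the antisense gene Cerkl (1124 shared exon bases in GENCODE M21, 0.684 to 1.94 FPKM), and Itgav by the antisense gene Gm13684 (634 shared exon bases), for which no level is given here.

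The values were analysed as log2(FPKM + 1) for genes at 1 FPKM or more in at least 4 of 8 libraries, with limma 3.58.1 in R 4.3.3 (eBayes with a mean-variance trend, Benjamini-Hochberg adjustment over all genes tested). Beside this, the FPKM values of each subunit went through an exact permutation test, two-sided, with 70 assignments of the libraries. Subunits below the filter were taken from a fit without it. The limma fit was also tested on simulated data, after the fits of the libraries had been made. The labels call the libraries biological replicates but do not tie them to animals, and p-values measure the spread between them. Ratios and sums are of plain FPKM. The depth was estimated from 4431 genes with 1 annotated transcript, of whose lowest values 43.5% to 50.0% lay within 0.1 of a whole fragment, and a whole multiple of it would give similar steps.

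The subunits and gene lists were chosen with earlier results of these data known. Named genes are all described subunits, other integrin subunits past the filter, and the 2 largest called changes in each direction of each further list, of which 1 is not reported here. Cd8a, Cd4, Itga2b, Pf4, Ppbp, Itgam, Itgax, Itgad, Gm49395, Gm13684, P2rx7 and Cerkl were named after their values were seen. So were Lama4, Lama5, Lamb1, Lamb2, Zfp683, Ahr and Cdh1. Alternatives were a pseudocount of 0.1, no filter, a mean of at least 5 FPKM, quantile normalization, median-ratio scaling, rescaling to TPM, no trend, a replicate block and each library left out. Python 3.11.15, scipy 1.17.1 and matplotlib 3.10.9 were used otherwise.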

Additional observations from a re-analysis of the deposited data

Results flagged for a closer look

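Among 36 groups of 4 values (the 10 subunits and 8 alpha to beta ratios, each in 2 treatments), 3 had 1 library far from the other 3, by a measure that chance meets in about 1 of 20 groups, or 1.8 of 36. Itgal was at 98.7 FPKM in DADA library 2 and at 102.2 to 102.9 FPKM in the other 3 DADA libraries, and the gap took 0.834 of the range of the group. Itga1 was at 0.0147 FPKM in DADA library 2 and listed at 0 in the other 3 DADA libraries, so that the gap took the whole range (1), and the ratio of Itga1 to Itgb1 was set apart in the same library for the same reason (1). Without DADA library 2 Itgal was still called lower (log2 fold change -0.24, limma adjusted p = 1.76e-05).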

How the results depend on the processing

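The number of called subunits, 6, was 5 with a mean of at least 5 FPKM (fewer genes tested), 7 with rescaling to the same total or with the replicate block, 8 with quantile normalization, and 6 to 8 with each library left out in turn. Over all genes the calls numbered 5741 to 7868 under the alternatives, 7050 with a pseudocount of 0.1 and 6491 to 6800 with a library left out, against 7064. The 6 called subunits kept their direction and their call under every alternative that tested them. Itga4 was called under quantile normalization (log2 fold change -0.11, adjusted p = 0.0271) and without DADA library 3, and Itgb7 under rescaling to the same total (0.10, adjusted p = 0.0157), quantile normalization (0.11, adjusted p = 0.0151), the replicate block (0.072, adjusted p = 0.0346) and without DADA library 3. The cause was not tested. The log2 fold change of Itgae was -0.038 under quantile normalization and -0.043 to 0.071 with a library left out, the lowest without DMSO library 1, against 0.025. With a pseudocount of 0.1 the log2 ratio of Itgav to Itgb3 differed between the groups by -1.39 in place of -1.23, that of Itgae to Itgb7 by 0.15 in place of -0.047, and that of Itga1 to Itgb1 by 0.027 in place of 0.13. Same-numbered DMSO and DADA libraries did not deviate together (correlations of -0.12 to 0.095, negative for numbers 2 and 3), and the main fit treats the libraries as unpaired. These correlations cannot show whether same-numbered cultures shared an animal or a batch. With the replicate block 6995 genes were called. Itgae rests on an estimated 0 to 16.7 fragments per library and Itga1 on 0 to 4.5, and the other 8 subunits on 272.6 or more.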
